A study of Mus musculus with 9 samples.

Results

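Cholesterol synthesis, transport and storage were read from 37 genes, taken as a named set of sterol genes and found in the count table of the livers by their Entrez identifiers and mouse symbols. All 37 were among the 27179 genes of the table, and 36 were among the 16860 that had enough counts to be tested. The set was ordered into arms by role, from the entry and mevalonate steps through the steps from squalene to cholesterol, SREBP-2 processing, LXR signalling, sterol efflux and exchange, lysosomal release and cytosolic carriers to esterification.

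RNA was sequenced from paraformaldehyde-fixed, embedded and frozen liver sections of female mice by an oligo-dT, Smart-seq2 protocol. The Apoe-/- group (5 libraries, labelled WT) lacked apolipoprotein E, and the Mif-2-/-Apoe-/- group (4 libraries, labelled DKO) also lacked Mif-2, the gene Ddt, in every cell of the body. Both groups therefore carried the Apoe deletion, were C57BL/6 mice put on a cholesterol-containing high-fat diet (HFD) at 8 weeks of age, and were fed it for 12 weeks, so that no library came from an animal with intact Apoe or from one on chow. RNA of 3 to 4 sections was joined for a library, and the labels do not tie libraries to animals beyond their replicate numbers. There were more Apoe-/- libraries than mice per genotype named in the methods, so that some may come from the same mouse, and p-values measure the spread between libraries.

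A hepatocyte holds cholesterol steady through opposed programs. When sterols are scarce, SCAP carries the transcription factor SREBP-2 out of the endoplasmic reticulum to be cut and released to the nucleus, where it activates the synthesis genes, and when sterols are plentiful the INSIG proteins hold SCAP back. Oxysterols activate the LXR receptors, which raise efflux transporters. In some cells they also raise MYLIP, an E3 ubiquitin ligase that removes lipoprotein receptors. Lysosomes free cholesterol from lipoproteins that were taken up, and the SOAT enzymes esterify the excess.

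The libraries held 2886407 to 10764182 counts in Apoe-/- livers and 2318148 to 5467917 in Mif-2-/-Apoe-/- livers. Ddt was at 233 to 972 CPM (counts scaled to a common library size) in Apoe-/- and at 2.52 to 5.49 CPM in Mif-2-/-Apoe-/- libraries, with a log2 fold change of 7.27 (standard error, SE, of 0.54, edgeR adjusted p = 2.2e-05). Of 10 hepatocyte markers looked for, 9 were found, and their share of the counts separated 1 library of each genotype from its group. It was 10.2 to 12.2% in Apoe-/- libraries 1 to 4 but 6.37% in Apoe-/- library 5, and 6.59 to 8.06% in Mif-2-/-Apoe-/- libraries 1, 3 and 4 but 14.9% in library 2. Marker levels were taken per total counts, without the scaling used for the members. Alb, Apoa1 and Ttr made up most of the hepatocyte sum, so the share mainly follows these 3 genes. They, Serpina1a, Fgb and Cyp2e1 were lowest in Apoe-/- library 5 and highest in Mif-2-/-Apoe-/- library 2 of their groups. Hnf4a was lowest in the former but not highest in the latter, and Cps1 and Ass1 set neither library apart in this way. The summed level of 10 Kupffer cell or macrophage markers overlapped between the genotypes, at 1164 to 1851 in Apoe-/- and 1324 to 1538 in Mif-2-/-Apoe-/- libraries, with 0 of the 10 at 0 counts. Clec4f made up the largest share of that sum, at 510 to 782 in Apoe-/- and 616 to 875 in Mif-2-/-Apoe-/- libraries. By edgeR, 7 of the 10 had a log2 fold change above 0 (Apoe-/- over Mif-2-/-Apoe-/-), 2 of them at an unadjusted p under 0.05, and 3 below 0. Cd5l did not overlap, by a narrow margin (217 to 419 against 108 to 210). Of all genes tested, 2.24% were higher in Apoe-/- livers without overlap on the scaled level. In whole sections, fewer cells of a type and less RNA per cell cannot be told apart.

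No member passed a Benjamini-Hochberg adjusted p of 0.05 in the edgeR quasi-likelihood test, which was fitted over all genes and called 0.13% of them. Fold changes are given as Apoe-/- over Mif-2-/-Apoe-/- on the log2 scale. Of the 36 members tested, 4 were higher in Apoe-/- livers at an unadjusted p under 0.05 (Ebp, Insig2, Abcg8 and Lipa) and 6 were lower (Mvd, Srebf2, Nr1h2, Mylip, Npc1 and Osbpl3), where 6.52% and 8.99% of all genes did so. DESeq2, the tool named in the methods, called Insig2 and Lipa higher and Mylip lower in Apoe-/- livers at an adjusted p under 0.05, among 5.27% of the genes to which it gave an adjusted p. The libraries of the genotypes did not overlap for 2 members that were higher in Apoe-/- livers, Scarb1 and Lipa, and for 2 that were lower, Nr1h2 and Mylip, against 2.24% and 2.03% of all genes. In all, 12 members lay above 0 and 24 below it, and their median was -0.10, beside -0.17 over all genes tested.

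**Figure D1:**
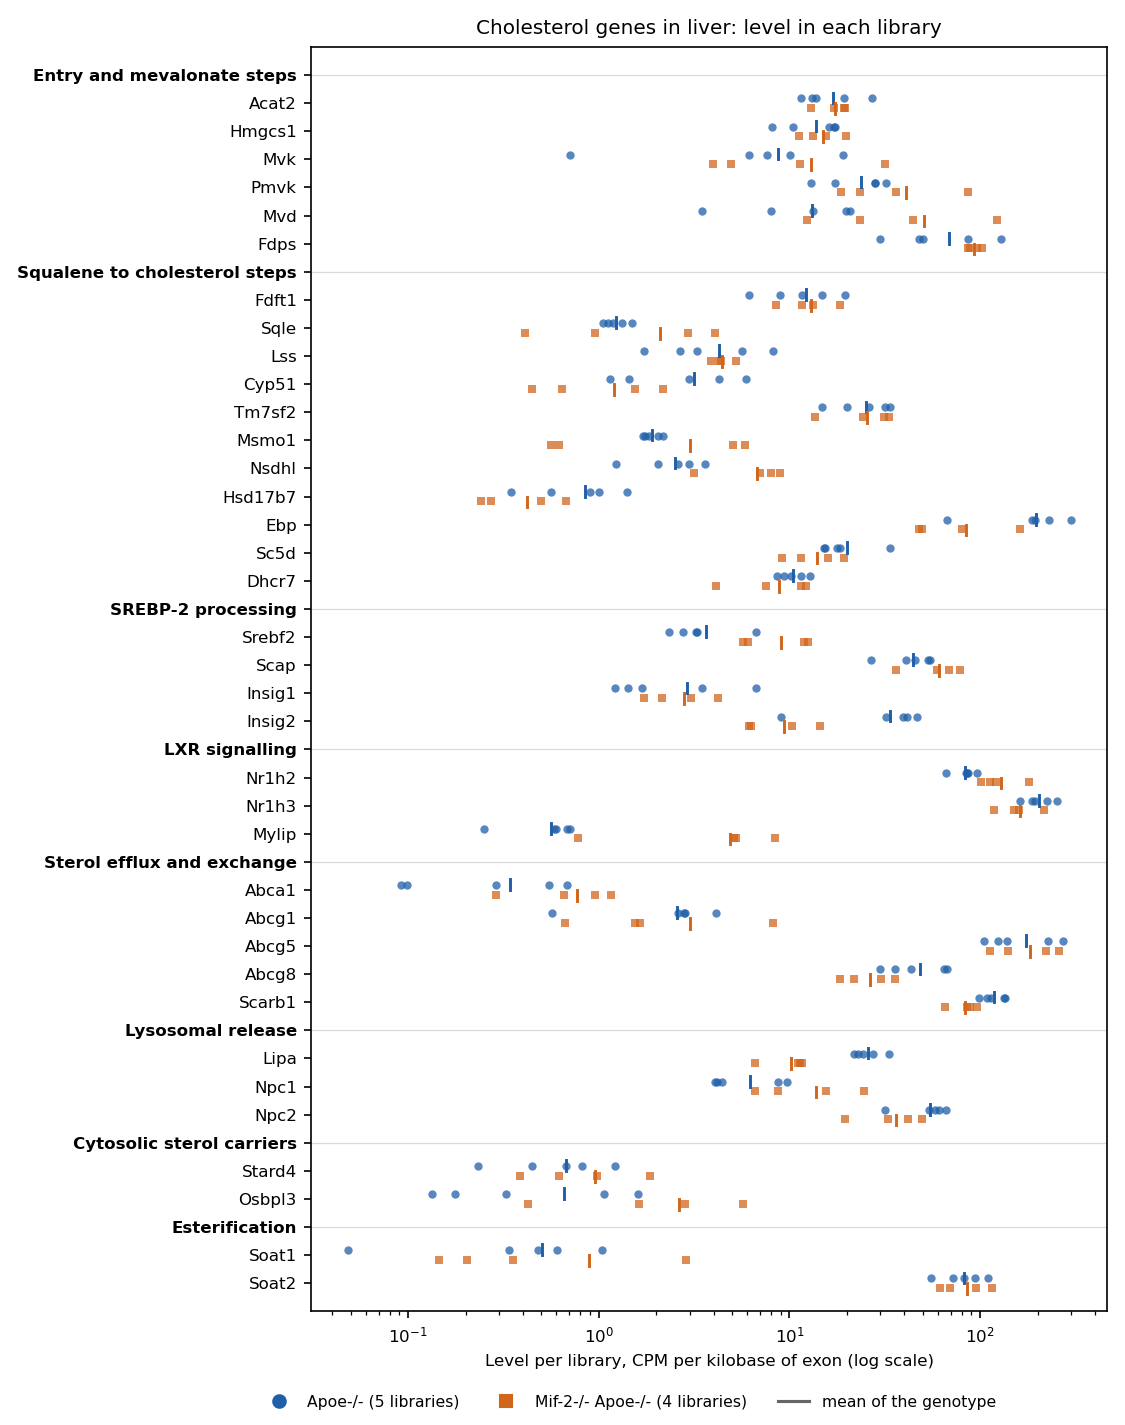
Level of each of the 36 tested members in every library, in CPM per kilobase of exon on a log axis, by arm; circles are the 5 Apoe-/- libraries, squares the 4 Mif-2-/-Apoe-/- libraries and short lines the mean of each genotype. Nr1h3 has the highest Apoe-/- mean (204) and Abca1 the lowest (0.341), and the squares of Mylip and the circles of Lipa stand to the right of the other genotype.

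The mean level per kilobase ran from 0.341 to 204 CPM over the members in Apoe-/- livers. Counts do not tell how evenly reads of the fixed tissue covered the exons, so ranks per kilobase are rough. The receptor gene Nr1h3 (204 ± 35.1 CPM per kilobase, SD, n = 5), the isomerase gene Ebp (195 ± 84.1), the sterol half-transporter gene Abcg5 (174 ± 72.7) and the HDL receptor gene Scarb1 (118 ± 15.6) led. The first 3 of these overlapped in their libraries. Nr1h2 (83.6 ± 11.1) and Soat2 (82.6 ± 20.9) came next, and overlapped as well. At the other end stood Mylip (0.563 ± 0.183), Soat1 (0.502 ± 0.365) and the efflux transporter gene Abca1 (0.341 ± 0.265), whose ranges also overlapped. In Mif-2-/-Apoe-/- livers Abcg5 (184 ± 68.9 CPM per kilobase, SD, n = 4), Nr1h3 (161 ± 40.6), Nr1h2 (129 ± 35.7), Fdps (93.4 ± 7.66), Soat2 (85.3 ± 24.3), Ebp (84.7 ± 53.2) and Scarb1 (83.7 ± 13.2) were the leading 7, again with ranges that overlapped between neighbours.

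The entry and mevalonate steps make isoprenoid units from acetyl-CoA. All 6 tested members were on the lower side in Apoe-/- livers, as were 9532 of all 16860 genes tested. Their median was -0.51 on the log2 scale, beside -0.17 over all genes, and Acat2 and Hmgcs1 lay above -0.17. The sign changed for Acat2 in 8, for Hmgcs1 in 5 and for Mvk in 1 of 18 alternatives. A single member of the arm, Mvd, had an unadjusted p under 0.05. Mvd (Entrez 192156), mevalonate diphosphate decarboxylase, was at 14.1, 36.6, 6.10, 34.9 and 23.4 CPM in Apoe-/- libraries 1 to 5 and at 41.3, 21.6, 216 and 78.0 CPM in Mif-2-/-Apoe-/- libraries 1 to 4. Library 3 of the Mif-2-/-Apoe-/- group was the highest, while its library 2 lay inside the Apoe-/- range. The log2 fold change was -1.95 (SE 0.63, edgeR adjusted p = 0.179), and it was -1.02 without Mif-2-/-Apoe-/- library 3 and -1.29 with the hepatocyte marker share as a covariate (adjusted p = 0.390). Fdps, farnesyl diphosphate synthase and the most abundant member of this arm, was at 73.3, 69.4, 125, 186 and 43.2 CPM in Apoe-/- livers and at 149, 125, 128 and 140.1 CPM in Mif-2-/-Apoe-/- livers, which overlapped (log2 fold change -0.45, SE 0.39, adjusted p = 0.618; -0.74 to -0.25 with 1 library left out). The 4 Mif-2-/-Apoe-/- values lay close together and the 5 Apoe-/- values did not. In the annotation, 77.4% of the exon bases of Fdps are also exon of Gm43738, so that their reads could not be told apart without strand.

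Hmgcs1, the cytosolic HMG-CoA synthase, differed by -0.12 on the log2 scale (95% interval -0.91 to 0.68), and Acat2, which makes acetoacetyl-CoA, by -0.02 (-0.84 to 0.80). The kinase genes Mvk and Pmvk had log2 fold changes of -0.58 and -0.78 with wide intervals that reached above 0. Both moved when 1 library was left out, with Mvk at 0.36 without Mif-2-/-Apoe-/- library 4 (63.3 CPM) and Pmvk at -0.04 without Mif-2-/-Apoe-/- library 2 (148 CPM). Idi1, isopentenyl diphosphate isomerase, had 1 count in Apoe-/- library 1 and none in the other 8 libraries, where a count of 0 allows 3 counts, or 0.402 to 1.70 CPM over the libraries; it was not tested.

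Between squalene and cholesterol, 5 of 11 members were on the higher and 6 on the lower side in Apoe-/- livers, with a median log2 fold change of -0.02. Ebp (Entrez 13595), the sterol isomerase also known as emopamil binding protein, was the only member with an unadjusted p under 0.05 and the most abundant of the arm. It was at 327, 339, 399, 521 and 117 CPM in Apoe-/- livers and at 86.2, 281, 83.1 and 140.4 CPM in Mif-2-/-Apoe-/- livers. Apoe-/- libraries 1 to 4 lay above every Mif-2-/-Apoe-/- library, Apoe-/- library 5 lay among them, and Mif-2-/-Apoe-/- library 2 was the highest of its group. Both of these libraries also stood apart in their hepatocyte marker share. The log2 fold change was 1.21 (SE 0.46, edgeR adjusted p = 0.233), 1.42 without Apoe-/- library 5 (adjusted p = 0.0750), 1.82 without Mif-2-/-Apoe-/- library 2 (adjusted p = 0.0641) and 0.94 with the marker share as a covariate (adjusted p = 0.0795).

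Nsdhl (Entrez 18194), a sterol dehydrogenase, was at 6.45, 2.68, 5.63, 7.86 and 4.45 CPM in Apoe-/- livers and at 17.3, 19.3, 15.1 and 6.86 CPM in Mif-2-/-Apoe-/- livers. Only Mif-2-/-Apoe-/- library 4 reached into the Apoe-/- range. By edgeR the log2 fold change was -1.43 (SE 0.69, adjusted p = 0.341). A two-sided exact permutation test of the means gave p = 0.0159, not adjusted over genes. Nsdhl was picked after its values were seen, so this p cannot show that the means differed. Among the other members, the log2 fold changes of Fdft1, Lss, Tm7sf2 and Dhcr7 lay between -0.09 and 0.25 (Fdft1, Lss and Tm7sf2 crossed 0 in 4, 6 and 8 of 18 alternatives), and those of Cyp51, the lanosterol demethylase, and Hsd17b7, a sterol ketoreductase, were 1.41 and 1.01 with intervals that held 0. Sqle, the squalene epoxidase, and Msmo1, a sterol methyl oxidase, lay close together in the Apoe-/- libraries (2.90 to 4.12 and 3.48 to 4.43 CPM) but ran from 1.14 to 11.2 and from 1.14 to 11.9 CPM among the Mif-2-/-Apoe-/- libraries. The low ends there were 2 counts for Sqle and 5 for Msmo1.

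**Figure D2:**
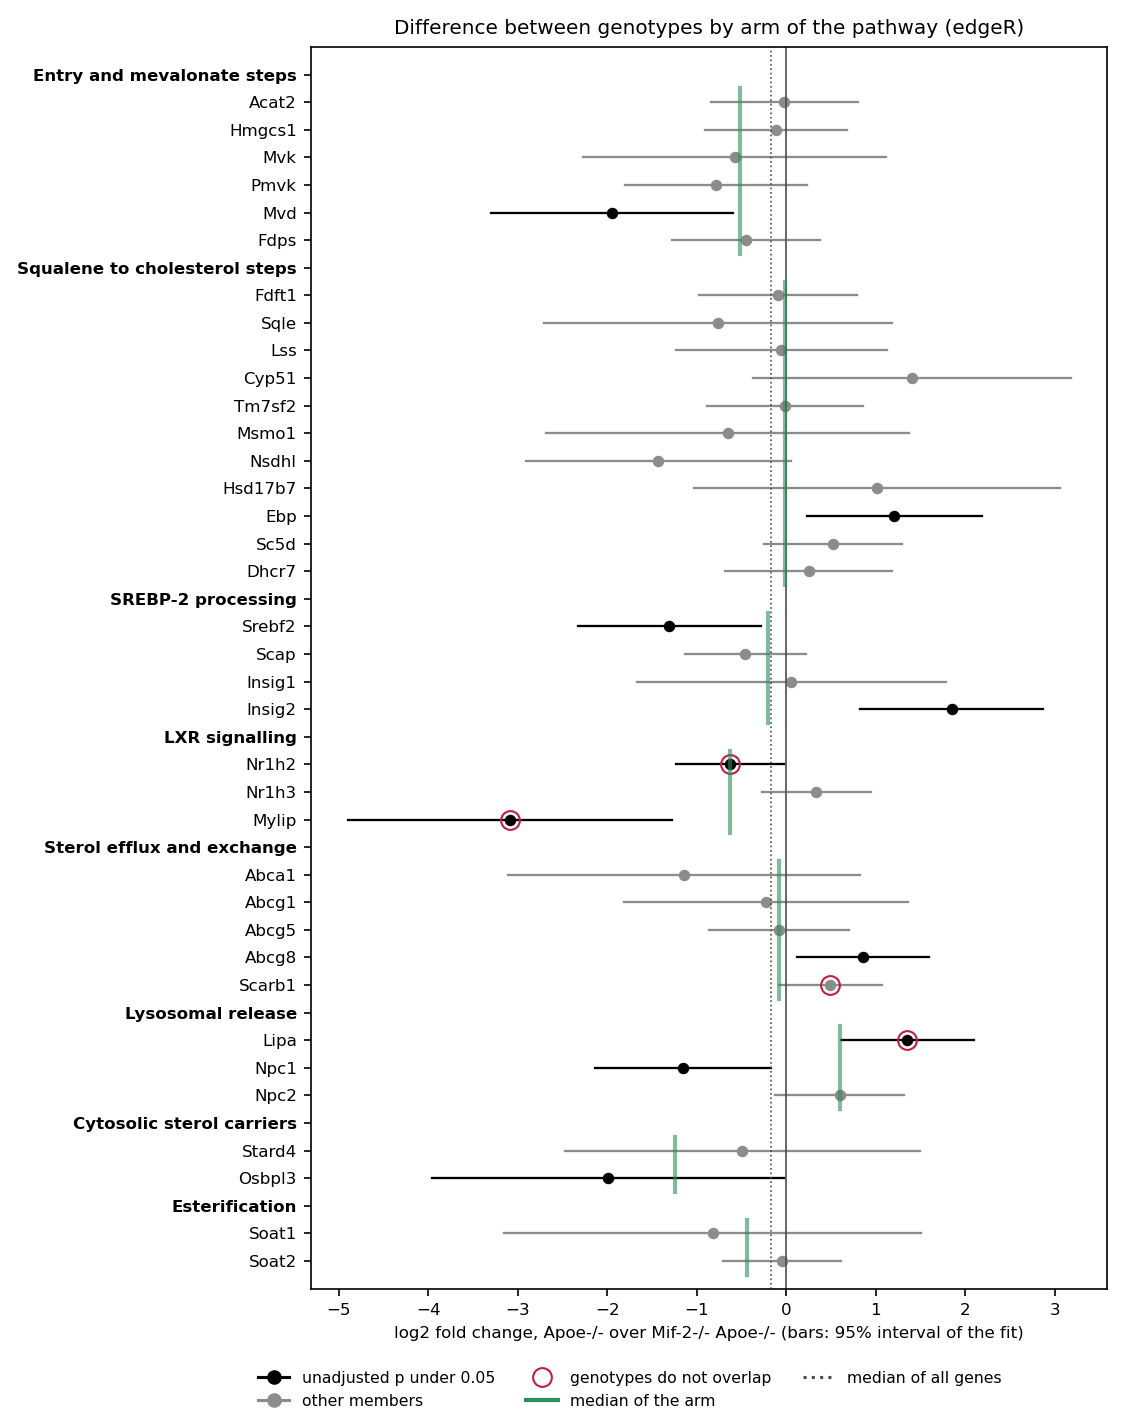
log2 fold change (Apoe-/- over Mif-2-/-Apoe-/-) of each tested member with its 95% interval from edgeR, by arm; black marks an unadjusted p under 0.05, red rings mark members whose genotypes do not overlap, green lines the arm's median and the dotted line the median of all genes. The mevalonate arm lies on the negative side with a median of -0.51, and the lysosomal arm holds Lipa at 1.35 and Npc1 at -1.15.

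In the SREBP-2 processing arm (median log2 fold change -0.20 over 4 members), Insig2 and Srebf2 lay on opposite sides of 0. Insig2 (Entrez 72999), one of the endoplasmic reticulum anchors of SCAP, was at 123, 116, 94.8, 138 and 26.5 CPM in Apoe-/- livers and at 30.5, 18.2, 18.6 and 42.8 CPM in Mif-2-/-Apoe-/- livers. The first 4 Apoe-/- libraries stood apart from all others, and library 5 lay within the Mif-2-/-Apoe-/- range. Insig2 had a log2 fold change of 1.85 (SE 0.48), and its adjusted p was 0.137 in edgeR and 0.0076 in DESeq2. Without Apoe-/- library 5 the log2 fold change was 2.09, with an edgeR adjusted p of 0.0259. That library lay within the other group, so leaving it out widens the gap. The same fit called 126 of all 16215 genes, against 22 of 16860 with every library. With the hepatocyte marker share as a covariate the log2 fold change was 1.57 (edgeR adjusted p = 0.183). Insig1, the other anchor and a target of SREBP-2, had less per kilobase (2.89 against 33.7 CPM per kilobase in Apoe-/- livers) and did not follow it, at 3.29 to 17.9 CPM in Apoe-/- and 4.68 to 11.4 CPM in Mif-2-/-Apoe-/- libraries (log2 fold change 0.06, 95% interval -1.67 to 1.78).

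Srebf2 (Entrez 20788), the gene of SREBP-2, was at 14.0, 11.8, 16.4, 16.5 and 34.1 CPM in Apoe-/- livers and at 30.7, 60.8, 63.7 and 29.0 CPM in Mif-2-/-Apoe-/- livers. Apoe-/- library 5 again lay among the Mif-2-/-Apoe-/- libraries and far from its own group. The log2 fold change was -1.31 (SE 0.48, edgeR adjusted p = 0.220) and -1.65 without Apoe-/- library 5 (adjusted p = 0.0784). An exact permutation test of the means, also two-sided, gave p = 0.0317, not adjusted over genes, for a member shown because of its edgeR p. Scap, the most abundant member of the arm, was at 232, 173, 224, 114 and 193 CPM in Apoe-/- and at 291, 154, 251 and 330.4 CPM in Mif-2-/-Apoe-/- libraries, which overlapped (log2 fold change -0.46, SE 0.32, adjusted p = 0.516; -0.25 without Apoe-/- library 4).

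Because these genes are linked by a sterol-responsive loop, the sequence upstream of their starts is shown, up to the first annotated exon. The windows are from RefSeq promoters on GRCm38.p6, in which 29 of the 37 members had at least 1 entry and 37 windows in all. Motifs were searched on either strand in the 250 bases before the start, and capitals mark the sterol regulatory element ATCACCCCA, the SREBP motif TCACNCCAC, the CCAAT box that binds NF-Y, the E-box CACGTG, the GC box GGGCGG that binds SP1 and the GATA motif AGATAA, or their reverse complements, none of which overlap here. The Srebf2 window was at chr15:82147019-82147180 (plus strand), the Insig1 window at chr5:28071162-28071362 (plus strand) and the Insig2 window, at the most upstream of its 3 listed starts, at chr1:121332590-121332839 (minus strand).
Srebf2: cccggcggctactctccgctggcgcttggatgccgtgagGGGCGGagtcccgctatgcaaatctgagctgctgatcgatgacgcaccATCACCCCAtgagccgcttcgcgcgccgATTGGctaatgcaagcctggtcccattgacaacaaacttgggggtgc
Insig1: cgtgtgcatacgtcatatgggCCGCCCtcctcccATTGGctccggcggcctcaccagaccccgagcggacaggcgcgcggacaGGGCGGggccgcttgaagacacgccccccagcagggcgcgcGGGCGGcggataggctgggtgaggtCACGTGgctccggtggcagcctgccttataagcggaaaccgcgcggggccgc
Insig2: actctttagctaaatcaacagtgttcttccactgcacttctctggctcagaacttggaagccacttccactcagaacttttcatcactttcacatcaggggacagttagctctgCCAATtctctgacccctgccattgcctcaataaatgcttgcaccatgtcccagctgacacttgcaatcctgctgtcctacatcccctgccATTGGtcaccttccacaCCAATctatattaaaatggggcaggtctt
The ATCACCCCA element stood at -163 to -155 from the Srebf2 start and in 0.24% of all 32851 promoter windows, and no other member window held it. TCACNCCAC stood in 1.05% of all windows and, among the members, in Hmgcs1 alone. CCAAT was found in 33.8% of all windows and in 62.2% of the member windows, GGGCGG in 32.7 and 64.9%, and CACGTG, with a copy at -101 to -96 of Insig1, in 6.02 and 16.2%. A match describes the letters and does not show that a factor bound there.

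Within a library the size factor cancels, so paired genes were also compared by the ratio of their counts. The Insig2 to Insig1 ratio was 31.4, 25.1, 9.88, 7.66 and 7.86 in Apoe-/- livers and 6.40, 1.59, 3.17 and 5.14 in Mif-2-/-Apoe-/- livers. Every Apoe-/- library, library 5 included, had a higher ratio than each Mif-2-/-Apoe-/- library, although libraries 4 and 5 came near the other group. The Insig1 to Insig2 ratio differed by -1.93 on the log2 scale (two-sided exact permutation test, p = 0.00794, at the limit of 126 arrangements, and 0.0159 after adjustment over the 6 ratios). Srebf2 relative to Srebf1, the gene of SREBP-1, overlapped between the genotypes and differed by -0.998 on the log2 scale (exact permutation test, adjusted p = 0.143); Srebf1 itself was at 767 to 1059 CPM in Apoe-/- and 927 to 1351 CPM in Mif-2-/-Apoe-/- libraries. Over all pairs of the 10668 genes that averaged 5 CPM or more, 5.02% of the ratios had no overlap. For the ratios without overlap, here and below, the permutation p follows from the lack of overlap and adds nothing to it. The members were also chosen with earlier results of these data known.

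**Figure D3:**
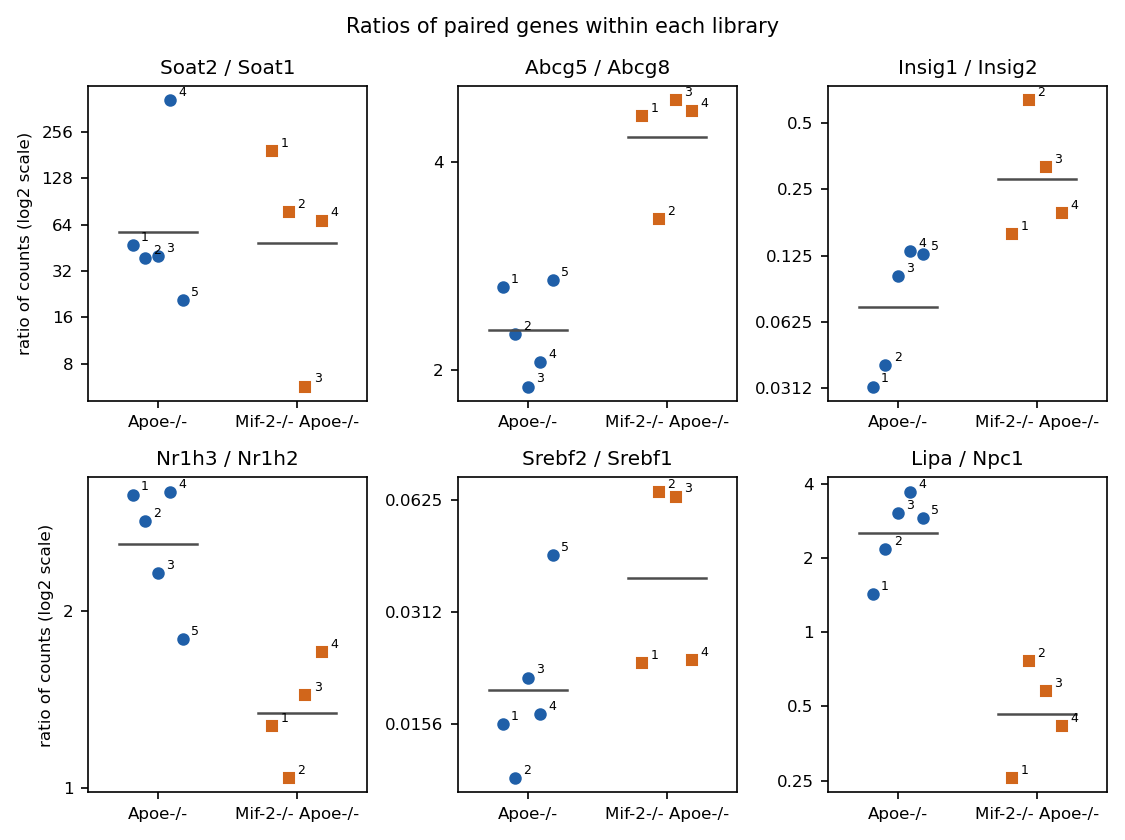
Ratio of the counts of paired genes within each library on a log2 axis; circles are Apoe-/- and squares Mif-2-/-Apoe-/- libraries, digits are replicate numbers and lines are geometric means. The genotypes do not overlap for Abcg5/Abcg8, Insig1/Insig2, Nr1h3/Nr1h2 and Lipa/Npc1, and overlap for Soat2/Soat1 and Srebf2/Srebf1.

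In the LXR arm (median log2 fold change -0.63 over 3 members), the genes of both receptors were abundant, and their fold changes lay on opposite sides of 0. Nr1h2 (Entrez 22260), LXR-beta, was at 132, 170.1, 173, 169.7 and 194 CPM in Apoe-/- livers and at 364, 244, 226 and 203 CPM in Mif-2-/-Apoe-/- livers. All 4 Mif-2-/-Apoe-/- values lay above all 5 Apoe-/- values, with Mif-2-/-Apoe-/- library 1 well above the rest and library 4 close to Apoe-/- library 5. The log2 fold change was -0.63 (SE 0.28, edgeR adjusted p = 0.302). A two-sided exact permutation test gave p = 0.00794, which follows from the lack of overlap and adds nothing to it. The groups overlapped with TMMwsp or RLE size factors. Nr1h3, LXR-alpha and the most abundant member of the arm, was at 417, 483, 400.5, 540.4 and 347 CPM in Apoe-/- and at 464, 254, 325 and 345 CPM in Mif-2-/-Apoe-/- libraries, which overlapped (log2 fold change 0.33, SE 0.28, adjusted p = 0.609; 0.50 without Mif-2-/-Apoe-/- library 1). The Nr1h3 to Nr1h2 ratio was 3.15, 2.84, 2.32, 3.18 and 1.79 in Apoe-/- and 1.27, 1.04, 1.44 and 1.70 in Mif-2-/-Apoe-/- livers. The groups did not overlap, with library 5 of the one and library 4 of the other nearest to each other (two-sided exact permutation test, p = 0.0159, adjusted p = 0.0238).

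Mylip (Entrez 218203), the ubiquitin ligase gene of this arm, had the largest fold of the 36 members tested. Whether LXR acted on Mylip in these livers was not tested. Mylip was at 2.19, 2.28, 1.88, 0.806 and 1.94 CPM in Apoe-/- livers and at 16.5, 27.3, 16.9 and 2.51 CPM in Mif-2-/-Apoe-/- livers. Mif-2-/-Apoe-/- libraries 1 to 3 stood far above all others, while library 4 lay just above the Apoe-/- range. Mylip had a log2 fold change of -3.09 (SE 0.85), and its adjusted p was 0.146 in edgeR and 0.0023 in DESeq2, from counts of 4 to 81 per library. The groups overlapped after thinning to the smallest library and with TMMwsp size factors, which moved the median over all genes by 0.17 on the log2 scale, to 0.00. The Mylip window was at chr13:45389492-45389741 (plus strand) and is shown because of this difference.
Mylip: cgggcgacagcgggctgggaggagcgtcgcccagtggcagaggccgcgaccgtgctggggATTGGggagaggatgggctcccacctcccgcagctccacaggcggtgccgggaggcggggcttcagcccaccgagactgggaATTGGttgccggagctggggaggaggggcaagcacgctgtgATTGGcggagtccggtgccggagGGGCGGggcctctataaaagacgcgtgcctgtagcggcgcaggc
It held CCAAT boxes in reverse orientation at -190 to -186, -108 to -104 and -67 to -63 and a GC box at -44 to -39. A direct repeat of AGGTCA with a spacer of 4 bases, the form that LXR and RXR bind, was in 5 of the 32851 windows and in none of a member in these exact letters.

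Sterol efflux and exchange had a median log2 fold change of -0.08 over 5 members (0.50 without Mif-2-/-Apoe-/- library 3), with 2 on the higher and 3 on the lower side in Apoe-/- livers. ABCG5 and ABCG8 form one heterodimer that secretes sterols into bile, and the level of the one gene relative to the other differed between the genotypes. Abcg8 was at 250.4, 243, 134, 163 and 111 CPM in Apoe-/- livers and at 135, 81.8, 69.0 and 113 CPM in Mif-2-/-Apoe-/- livers, which overlapped through libraries 3 and 5 of the one and 1 and 4 of the other (log2 fold change 0.86, SE 0.34, edgeR adjusted p = 0.262). Abcg5, the most abundant of the arm, was at 661, 549.6, 254, 334 and 301 CPM in Apoe-/- and at 630.0, 271, 340.1 and 536 CPM in Mif-2-/-Apoe-/- livers. They covered the same range (log2 fold change -0.08, 95% interval -0.86 to 0.70).

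The Abcg5 to Abcg8 ratio was 2.64, 2.26, 1.89, 2.06 and 2.70 in Apoe-/- livers and 4.67, 3.31, 4.92 and 4.75 in Mif-2-/-Apoe-/- livers. All 4 Mif-2-/-Apoe-/- ratios lay above all 5 Apoe-/- ratios, with library 2 the lowest of its group. The geometric means differed 1.91-fold (two-sided exact permutation test, p = 0.00794, adjusted p = 0.0159). These genes lie head to head, and 109 bases part the Abcg5 start at 84683011 from the Abcg8 start at 84683121 on chromosome 17; that stretch, chr17:84683012-84683120 on the strand of Abcg8, is shown because both genes share it.
Abcg8: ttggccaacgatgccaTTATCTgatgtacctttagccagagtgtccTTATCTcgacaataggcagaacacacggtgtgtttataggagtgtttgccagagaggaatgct
It held the GATA motif in reverse orientation at -93 to -88 and -63 to -58 from the Abcg8 start, a motif found in 9.99% of all windows. The exons of the pair share 40 bases, or 1.65% of Abcg5 and 1.07% of Abcg8, and RefSeq lists 2 starts for Abcg8, to neither of which the reads were tied.

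Scarb1 (Entrez 20778), the receptor SR-B1 that takes cholesteryl esters from HDL, was at 288, 336, 274, 339 and 249 CPM in Apoe-/- livers and at 223, 242, 215 and 164 CPM in Mif-2-/-Apoe-/- livers. The groups did not overlap, but Apoe-/- library 5 and Mif-2-/-Apoe-/- library 2 lay close together, and they overlapped with TMMwsp size factors and after thinning to the smallest library. Scarb1 had a log2 fold change of 0.49 (SE 0.27, edgeR adjusted p = 0.392). Its p in a two-sided exact permutation test, 0.0159, likewise follows from the lack of overlap and adds nothing to it. Abca1 and Abcg1, which pass cholesterol to apolipoprotein A-I and HDL, were low, at 0.939 to 6.97 and 3.87 to 28.02 CPM in Apoe-/- and 2.97 to 11.9 and 4.54 to 55.9 CPM in Mif-2-/-Apoe-/- libraries, and both overlapped.

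Lysosomal release (median log2 fold change 0.60 over 3 members) held a member whose genotypes stood well apart. Lipa (Entrez 16889), lysosomal acid lipase, which frees cholesterol from cholesteryl esters, was at 72.2, 98.5, 64.8, 81.2 and 68.0 CPM in Apoe-/- livers and at 32.7, 34.6, 19.7 and 33.6 CPM in Mif-2-/-Apoe-/- livers. Every Apoe-/- library, library 5 included, lay well above every Mif-2-/-Apoe-/- library, and the groups stayed apart in each of the other normalizations and with each library left out. Lipa had a log2 fold change of 1.35 (SE 0.35, 95% interval 0.61 to 2.10), and its adjusted p was 0.137 in edgeR, 1.4e-04 in DESeq2 and 0.0784 in edgeR with the hepatocyte marker share as a covariate. The Lipa window, at chr19:34527475-34527724 on the minus strand, is shown for this separation.
Lipa: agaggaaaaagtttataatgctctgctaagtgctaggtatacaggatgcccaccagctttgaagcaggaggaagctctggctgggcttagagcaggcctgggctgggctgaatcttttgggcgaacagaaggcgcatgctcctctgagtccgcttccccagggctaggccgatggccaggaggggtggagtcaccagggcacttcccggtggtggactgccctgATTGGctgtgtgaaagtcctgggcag
It held 1 CCAAT box in reverse orientation, at -26 to -22.

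Npc1 and Npc2 hand the freed cholesterol out of the lysosome. Npc1 (Entrez 18145), the membrane transporter, was at 50.6, 45.3, 21.1, 21.8 and 23.2 CPM in Apoe-/- livers and at 128, 45.4, 34.3 and 81.2 CPM in Mif-2-/-Apoe-/- livers. Mif-2-/-Apoe-/- libraries 1 and 4 were above all others and the remaining values overlapped (log2 fold change -1.15, SE 0.46, edgeR adjusted p = 0.259; -0.73 without Mif-2-/-Apoe-/- library 1). Npc2, the soluble carrier and the most abundant of the arm, was at 219, 192, 179, 201 and 105 CPM in Apoe-/- and at 64.9, 163, 139 and 108 CPM in Mif-2-/-Apoe-/- libraries, with Apoe-/- library 5 again inside the other group (log2 fold change 0.60, SE 0.34, adjusted p = 0.418; 0.39 without Mif-2-/-Apoe-/- library 1). The Lipa to Npc1 ratio was 1.42, 2.17, 3.04, 3.72 and 2.92 in Apoe-/- livers and 0.256, 0.764, 0.575 and 0.415 in Mif-2-/-Apoe-/- livers. There were more Lipa than Npc1 counts in all 5 Apoe-/- libraries and fewer in all 4 Mif-2-/-Apoe-/- libraries, a 5.43-fold difference of the geometric means (two-sided exact permutation test, p = 0.00794, adjusted p = 0.0159). This p likewise follows from the lack of overlap, which Lipa already had by itself.

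Both cytosolic carriers lay below 0, with a median log2 fold change of -1.24. Osbpl3 (Entrez 71720), an oxysterol-binding protein relative, was at 1.23, 2.28, 0.939, 7.46 and 11.2 CPM in Apoe-/- livers and at 11.4, 19.9, 40.1 and 2.97 CPM in Mif-2-/-Apoe-/- livers. Mif-2-/-Apoe-/- library 4 lay inside the Apoe-/- range (log2 fold change -1.99, SE 0.92, edgeR adjusted p = 0.316; -1.28 without library 3 of that group). Stard4, a sterol transfer protein, was at 1.21 to 6.31 CPM in Apoe-/- and 2.02 to 9.65 CPM in Mif-2-/-Apoe-/- libraries.

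Esterification rested on Soat2, the enzyme of hepatocytes, which was at 243, 159, 122, 207 and 182 CPM in Apoe-/- livers and at 254, 154, 136 and 209.6 CPM in Mif-2-/-Apoe-/- livers. The groups covered the same range, with a log2 fold change of -0.05 and a 95% interval of -0.71 to 0.61. Soat1, the enzyme of macrophages and other cells, was at 0.403 to 8.71 CPM in Apoe-/- livers, and at 1.22, 1.70, 23.9 and 2.97 CPM in Mif-2-/-Apoe-/- livers, where library 3 alone was high. The summed level of 6 markers of lipid-associated macrophages was, per total counts, 669 in that library, 243 to 666 in the other 3 of its group and 397 to 577 in Apoe-/- livers; its part in the Soat1 value was not tested. Without that library the median of the arm turned from -0.43 to 0.46 and the Soat2 to Soat1 ratio, which overlapped (difference 0.23 on the log2 scale, exact permutation test, adjusted p = 0.881), turned to -0.81.

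**Figure D4:**
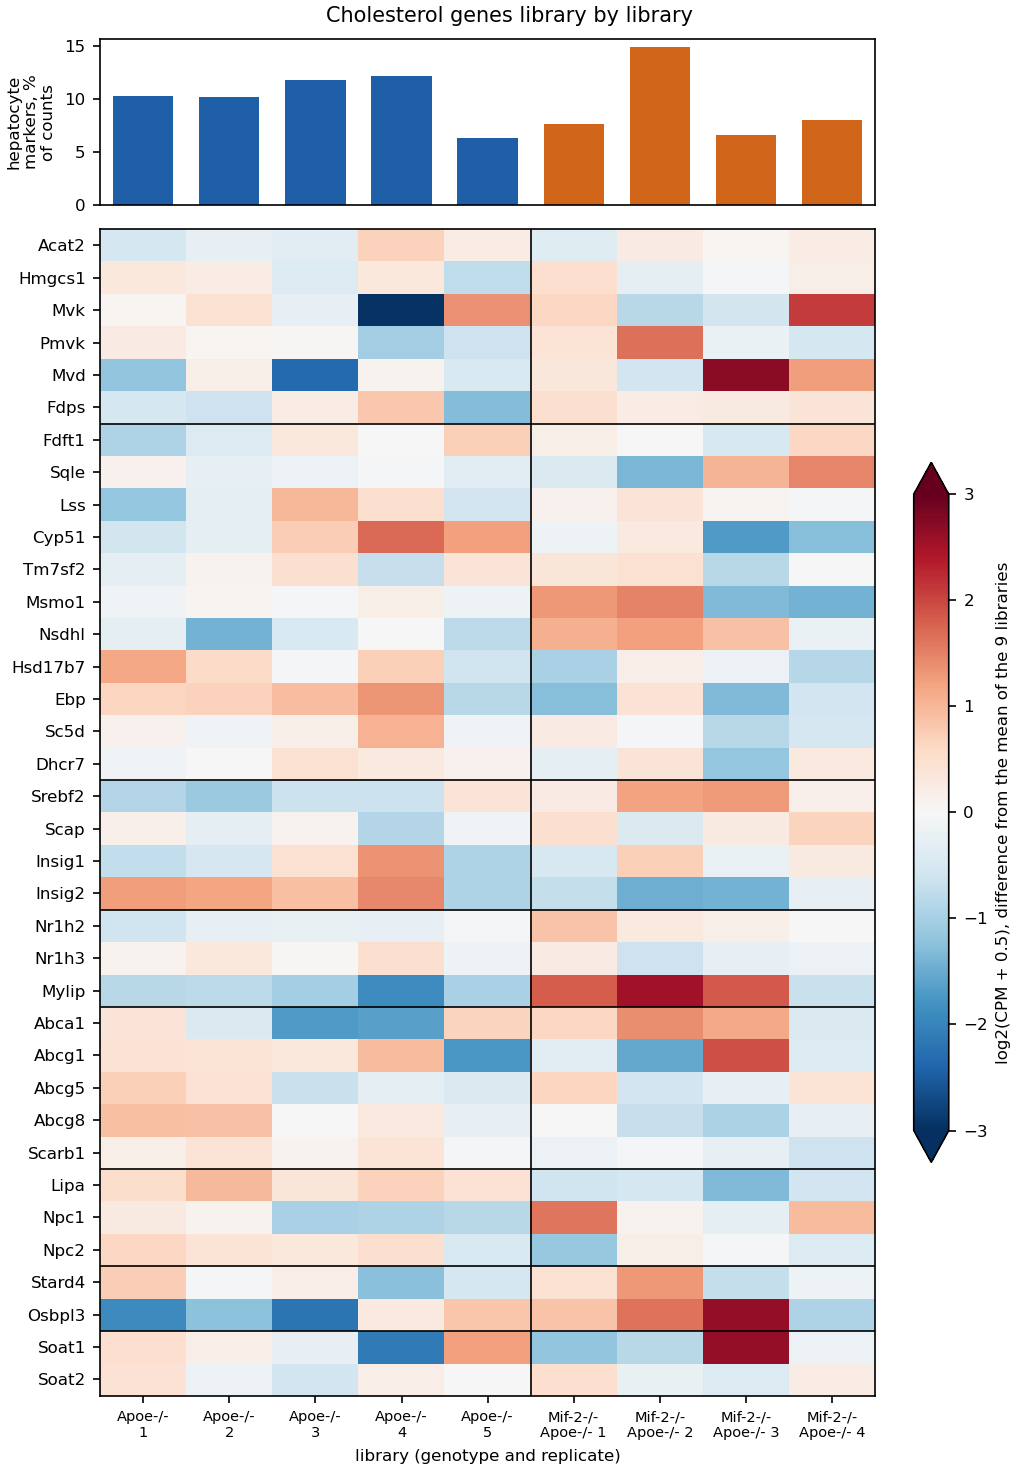
Upper panel, share of counts in hepatocyte markers per library; lower panel, log2(CPM + 0.5) of each tested member as the difference from its mean over the 9 libraries, red above and blue below, with the arms parted by lines and the genotypes by a vertical line. Apoe-/- library 5 has the lowest marker share (6.37%) and resembles the Mif-2-/-Apoe-/- libraries for Ebp, Srebf2, Insig2 and Npc2 but not for Mylip or Lipa.

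With Apoe-/- library 5 left out, 5 members that were higher in Apoe-/- livers had no overlap (Ebp, Insig2, Lipa, Npc2 and Scarb1) and 3 that were lower (Mylip, Nr1h2 and Srebf2), against 6.31% and 5.05% of all genes among these 8 libraries. Without Mif-2-/-Apoe-/- library 2, Mvd and Scap joined Mylip and Nr1h2 as lower without overlap, where 5.13% of all genes did so, and Lipa and Scarb1 were higher, where 6.13% did so. With the hepatocyte marker share as a covariate, 4 members were higher and 6 lower at an unadjusted p under 0.05, with Nsdhl among the 6 in place of Mvd. In that fit 2365 of all 16860 genes had such a p in either direction.

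Of 57 other genes of the same pathways, 56 were tested and edgeR called 0 at an adjusted p under 0.05, where it called 0.13% of all genes. At an unadjusted p under 0.05, 8 were higher and 2 lower in Apoe-/- livers, where 6.52% and 8.99% of all genes did so. DESeq2 gave an adjusted p to 51 of them and called 5, all higher in Apoe-/- livers, where it called 5.27% of all such genes. Of the 5, 4 are described. Spring1, which aids the cutting of SREBPs, was at 18.1, 11.1, 23.9, 47.8 and 13.4 CPM in Apoe-/- and at 5.29, 3.41, 0.756 and 3.43 CPM in Mif-2-/-Apoe-/- livers, which did not overlap (log2 fold change 2.81, SE 0.76, adjusted p = 0.144 in edgeR and 0.0022 in DESeq2). Dhdds, which makes dolichol precursors, also did not overlap, with a log2 fold change of 1.36 and a DESeq2 adjusted p of 0.0172. Scp2, a sterol carrier, and Lamp1, a lysosomal membrane protein, overlapped and had log2 fold changes of 1.73 and 1.53. The median log2 fold change of the 56 was -0.08, beside -0.17 over all genes.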

How the data were processed

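The submitters' processing notes name FastQC, cutadapt, HISAT2 and mm10; the methods add Galaxy and DESeq2. The authors deposited raw read counts per gene, by Entrez identifier, one column per library and not normalized; whether counting used strand is not given in the sources used here. One line without an identifier was left out, and symbols were given to 25275 of 27179 genes. The 10 most abundant genes were excluded, a gene was kept where 3 or more libraries of one genotype had a count of 1 or more, and edgeR 4.0.16 (TMM, quasi-likelihood test, Benjamini-Hochberg adjustment) compared the 5 Apoe-/- with the 4 Mif-2-/-Apoe-/- libraries; the methods name 4 mice per genotype; CPM are scaled to the remaining counts with TMM factors. DESeq2 1.42.0, other size factors and filters, a covariate, a replicate block and leaving out each library were alternatives. Single genes were tested on log2(CPM + 0.5) and ratios on log2 counts with a pseudocount of 0.5 by two-sided exact permutation tests. Members named with every library's value had an unadjusted p under 0.05 or no overlap, or the highest mean of their arm; Nsdhl was added after its values were seen. Exon lengths and coordinates are from GENCODE M21 (GRCm38), promoters from RefSeq. The edgeR script was tested on simulated data. The members and lists were chosen with earlier results of these data known. Total counts were 2318148 to 10764182 per library. Among the low members, Sqle, Abca1, Soat1 and Osbpl3 rest on as few as 2 counts in a library, Mylip on 4 and Msmo1 on 5. Printed intervals are edgeR's and rest on the spread between libraries, and the limit of 3 counts covers counting error only. One gene of the other pathway genes is not reported here.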

Additional observations from a re-analysis of the deposited data

Results flagged for a closer look

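In 6 of the 72 sets of libraries of one genotype and one member, the highest or lowest library lay apart from the rest by Dixon's test, where chance alone marks about 1 in 20. Sc5d was at 164 CPM in Apoe-/- library 4, beside 74.3 to 89.7 CPM in the other 4 Apoe-/- libraries. Mylip was at 0.806 CPM in the same library, beside 1.88 to 2.28 CPM. Srebf2 was at 34.1 CPM in Apoe-/- library 5, beside 11.8 to 16.5 CPM. The other 3 were in Mif-2-/-Apoe-/- library 3: Abcg1 was at 55.9 CPM beside 4.54 to 11.2 CPM, Soat1 at 23.9 CPM beside 1.22 to 2.97 CPM and Lipa at 19.7 CPM beside 32.7 to 34.6 CPM.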

How the results depend on the processing

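Of the 36 tested members, 23 kept the sign of their fold change in all 18 alternatives and 13 did not. The number of members called at an adjusted p under 0.05 was 0 in each direction with edgeR. It was 2 higher and 1 lower in Apoe-/- livers with DESeq2, and 2 higher (Ebp and Insig2) with a replicate block. No label says that equal replicate numbers mark a pair. Same-numbered libraries correlated at 0.144, -0.02, 0.03 and -0.04, and 1 of the 4 numbered Apoe-/- libraries correlated best with its own number. These few values cannot tell whether the numbers pair the libraries. Over all genes the calls went from 22 to 739 with DESeq2, 560 with the block, 239 with the hepatocyte covariate, and 9 to 262 without 1 library. Among the members, 0 to 1 were called higher without 1 library in turn (Insig2, without Apoe-/- library 5). At an unadjusted p under 0.05, 3 were lower with TMMwsp size factors, and without 1 library 2 to 6 were higher and 3 to 6 lower. The fewest higher came without Mif-2-/-Apoe-/- library 3 and the fewest lower without Mif-2-/-Apoe-/- library 2 or Apoe-/- library 3. Of all genes, 2635 of 16860 had such a p in either direction with TMMwsp. Without 1 library it was 1761 of 16087 (Mif-2-/-Apoe-/- library 3 left out) to 3681 of 16215 (Apoe-/- library 5 left out). Members without overlap numbered 1 higher and 0 lower with TMMwsp, 1 lower with RLE, 1 higher after thinning (where Nsdhl replaced Mylip among the 2 lower), and 2 to 5 higher and 2 to 4 lower without 1 library. Of all genes, 6.31% were higher and 5.05% lower without overlap when Apoe-/- library 5 was left out. It was 6.13% and 5.13% when Mif-2-/-Apoe-/- library 2 was left out, and the share was not worked out for the other settings. The median of the efflux arm was 0.36 with the hepatocyte covariate and 0.56 with the block, and -0.17 to 0.50 without 1 library; that of esterification was -0.66 to 0.46. Without 1 library the log2 differences of the ratios were -1.06 to -0.86 (Abcg5 to Abcg8), -2.20 to -1.53 (Insig1 to Insig2), 0.83 to 1.09 (Nr1h3 to Nr1h2), 2.15 to 2.68 (Lipa to Npc1), -1.30 to -0.74 (Srebf2 to Srebf1, adjusted p = 0.0343 without Apoe-/- library 5) and -0.81 to 0.89 (Soat2 to Soat1, reversed at -0.48 without Apoe-/- library 4 and -0.81 without Mif-2-/-Apoe-/- library 3). With 8 libraries left, the smallest exact permutation p is 0.0179 or 0.0286, so a call of a ratio can be lost there through the fewer arrangements alone. The highest adjusted p was 0.0536 for Abcg5 to Abcg8 and for Lipa to Npc1, 0.0714 for Nr1h3 to Nr1h2 and 0.107 for Insig1 to Insig2. Nr1h3 to Nr1h2 and Insig1 to Insig2 were thus not at the smallest p in every such fit. The cause of the moves was not tested.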
